A study of Mus musculus with 26 samples.

Results

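The genes described here resolve R-loops or act where transcription meets replication. The list holds 33 named mouse genes out of 24682 gene symbols counted. They were chosen by name and function, with earlier results of these data known. All 33 had a row in every file and passed the filter on low counts in every comparison, so no member is missing from any count below.

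An R-loop forms when a new transcript stays paired with its template strand and leaves the other DNA strand single. RNase H enzymes digest the RNA of the hybrid, helicases unwind it, topoisomerases relieve the twist behind the polymerase, and splicing and export factors keep the transcript off the DNA. Hybrids that persist can block replication forks, where Fanconi and BRCA proteins, the ATR kinase and the single-strand binding protein RPA act. In male germ cells the same helicases and BRCA proteins also serve meiotic recombination, and spermatids no longer replicate their DNA.

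RNA was sequenced from mouse testes and sorted germ cells. The testes, from the C57BL/6 strain and taken at postnatal day 21, were those of Nkapl knockouts with their wild types, of Sox30 knockouts with their wild types, and of mice with the Nkapl TGdel allele on both chromosomes (genotype written TGdelete) with wild types of their own. Pachytene spermatocytes, which are in meiotic prophase, and round spermatids, which are haploid, were sorted from Nkapl knockout and wild-type mice, with titles that also give 21 days. The labels do not say which bases any allele lacks or how the cells were sorted. A frameshift of NKAPL appears in the title of the series but is tied to no group there. Libraries are grouped by the code that heads their column, with repeated columns counted once. This gives 2 Nkapl knockout and 3 wild-type testes, 2 Sox30 knockout and 3 wild-type testes, 3 TGdel and 2 wild-type testes, and 2 libraries for each sorted group. The design text speaks of biological triplicates, and nothing else ties a library to an animal, so the p-values measure the spread between these libraries.

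Several libraries have doubtful labels. For 15 of 18 testis files the code over the counts belongs to a different sample from the one on record, and for 4 of the 23 distinct libraries the heading and the record name different groups. By heading these are TGdel 3 and wild type 2 of its set, and library 3 of both the Nkapl and the Sox30 wild types. Nkapl itself measured 60.8 and 57.8 CPM (each count over the scaled library size, set by set, with edgeR) in Nkapl knockout testes, against 74.9, 79.5 and 79.9 CPM in wild-type testes. In knockout round spermatids it measured 24.6 and 23.6 CPM, against 88.4 and 90.3 CPM in wild type. In spermatocytes it went against the label, at 127 and 125 CPM in the libraries labelled knockout and 90.1 and 86.0 CPM in those labelled wild type. Directions in spermatocytes therefore follow labels that the Nkapl level goes against. Whether these labels are right was not tested, as the bases that the allele lacks are not given. Nkapl was 107, 118 and 126 CPM in TGdel testes, against 101 and 103 CPM in wild type. Sox30 was 44.7 and 61.5 CPM in Sox30 knockout testes, against 77.6, 86.2 and 72.4 CPM in wild type. Total counts per library ran from 16469667 to 40010106, and the lowest member count behind any value was 34, for Rnaseh2b in a wild-type spermatid library.

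The labelled cell types were checked against marker genes. The 12 round spermatid markers summed to 2240 to 2250 CPM in knockout and 7480 to 7760 CPM in wild-type spermatids. In spermatocytes they summed to 885 to 902 CPM in libraries labelled knockout and 2320 to 2430 CPM in those labelled wild type. The 10 pachytene to diplotene markers lay between 12600 and 14800 CPM in all 8 sorted libraries, spermatids included. The 12 Sertoli markers summed to 26.2 to 236 CPM in sorted libraries, against 1380 to 2340 CPM in whole testis. Leydig and macrophage markers also summed lower in every sorted library than in any whole testis. The 6 peritubular myoid markers did not, at 272 to 279 CPM in wild-type spermatids and 261 to 302 CPM in Nkapl wild-type testes. They summed to 118 to 119 CPM in knockout spermatids. In spermatocytes they summed to 39.7 to 43.0 CPM (labelled knockout) and 98.6 to 98.7 CPM (labelled wild type). All 8 sorted libraries thus carry high germ cell markers, and the spermatid markers separate the cell types within each genotype.

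Levels within the group differed widely. Per kilobase of merged exons, Ddx5, an RNA helicase that also acts in splicing, was the highest member in all 10 groups, from 131 CPM per kb in Nkapl knockout testis to 305 CPM per kb in knockout spermatids. Rnaseh2a, the catalytic subunit of RNase H2, ranked 2 in every group but Nkapl knockout testis, where it ranked 5. It reached 216 CPM per kb in knockout and 207 CPM per kb in wild-type spermatids. Its partner subunits lay far lower there, with Rnaseh2c at 6.50 CPM per kb in knockout and 7.73 CPM per kb in wild type. Rnaseh2b stood at 0.469 CPM per kb in knockout and 0.367 CPM per kb in wild-type spermatids. Rnaseh2b was the lowest member in 8 of the 10 groups. Top2b, the topoisomerase II form of non-dividing cells, took that place in both spermatid groups. Thoc2, an mRNA export subunit and the only member on chromosome X, had 7.19 to 17.4 CPM in sorted germ cells and 60.2 to 157 CPM in whole testes. Each set was scaled alone, so levels were not tested between testis and sorted cells.

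Counting may have split some reads. The strand setting is not given in the sources used here, and in the annotation used (GENCODE vM21, build GRCm38) several members share exon bases with a gene on the other strand. The shared part is 24.8% of the merged exons of Rnaseh2c (with Kat5), 24.3% of Thoc1 (Usp14), 17.4% of Ddx41 (Gm46416), 16.0% of Fanci (Polg), 12.3% of Top2b (Rarb) and 10.5% of Fanca (Zfp276). Gm46416 is not among the gene symbols counted, so a split of Ddx41 reads with it is not shown. Rnaseh2a shares 9.66% of its merged exons with Gm49661 on its own strand, which is not among those symbols either. Values of the genes named here are less certain for that reason.

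Whole testis of Nkapl knockouts showed small shifts in both directions. Of the 33 members, 9 were higher and 8 lower than in wild type (edgeR quasi-likelihood test, Benjamini-Hochberg adjusted p under 0.05), beside 17.8% of 16937 genes called higher and 26.1% called lower. Members called in either direction made up 51.5% of the group, beside 43.9% of all genes tested, and their median log2 fold change was 0.01, as was that of all genes. The largest fall was that of Rnaseh2a and the largest rise that of Rnaseh1, the other RNase H of the nucleus and mitochondria. The group did not move one way, since RNase H, helicase, topoisomerase and export genes were each split between rises and falls.

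Rnaseh2a (chromosome 8, 84956610 to 84969767, GRCm38) measured 161 and 150 CPM in Nkapl knockout testes, against 245, 241 and 241 CPM in wild-type testes. The knockout values lie far below all 3 wild-type values, and the wild-type library recorded as a knockout reads 241 CPM like its group. The log2 fold change was -0.65 ± 0.04 (SE, adjusted p = 3.72e-10). Rnaseh1 went the other way, with 14.7 and 15.0 CPM in knockout testes and 11.9, 11.8 and 11.2 CPM in wild type (log2 0.36 ± 0.09, adjusted p = 0.00444). Rnaseh2b and Rnaseh2c did not pass, at log2 0.11 ± 0.13 and -0.15 ± 0.10. In bulk samples, fewer cells of a type and less RNA per cell cannot be told apart. The round spermatid markers fell as Rnaseh2a did, while Rnaseh1 rose. They summed to 71.7 to 73.4 CPM in knockout testes and 184 to 216 CPM in wild type, with 9 of 10 tested lower. Of these markers Tnp2, Prm1 and Prm2 were at 0 counts in both knockout libraries. The Sertoli markers summed to 1890 to 1990 CPM in knockout and 1590 to 1620 CPM in wild type, with 9 of 12 higher. The pachytene to diplotene markers summed to 5600 to 5700 CPM in knockout and 6930 to 6990 CPM in wild type, with 9 of 10 lower. Spermatogonial markers summed to 365 to 376 CPM in knockout and 298 to 311 CPM in wild type, with 7 of 10 higher. The ribosomal RNA transcript Rn45s took 54200 and 51300 CPM in knockout testes, against 40100 to 40600 CPM in wild type. The part of these differences in the members' values was not tested.

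**Figure D1:**
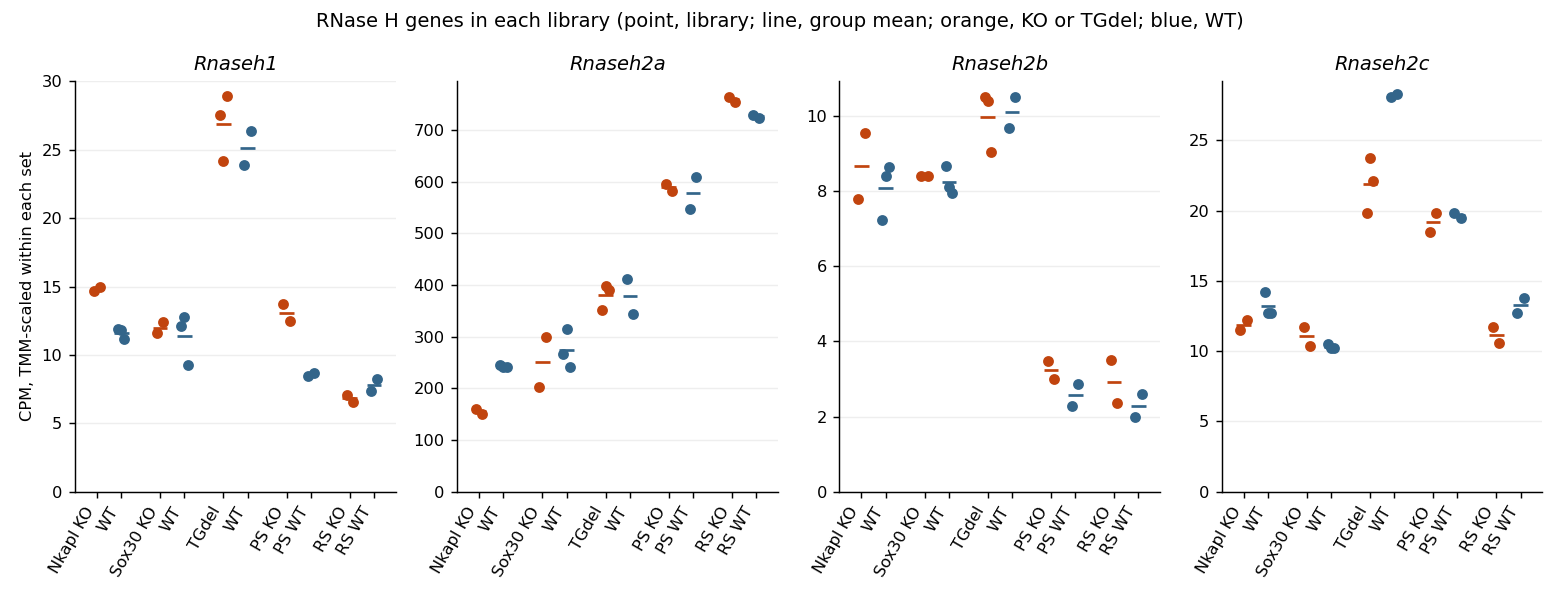
CPM of the 4 RNase H genes in each library (points) with group means (lines); knockout or TGdel groups stand left of their wild type, PS marks spermatocytes and RS round spermatids. Rnaseh2a lies at 150 to 161 CPM in Nkapl knockout testes and 241 to 245 CPM in wild type, and reaches 724 to 764 CPM in spermatids.

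Among helicases, Dhx9 was called higher and Wrn lower in Nkapl knockout testis. Dhx9, which unwinds RNA and hybrids, measured 420 and 414 CPM in knockout testes and 344, 353 and 354 CPM in wild type (log2 0.25 ± 0.03, adjusted p = 8.84e-06). Wrn, a RecQ helicase, measured 83.2 and 79.2 CPM in knockout testes and 95.4, 99.7 and 97.9 CPM in wild type (log2 -0.27 ± 0.04, adjusted p = 8.01e-05). Neither gene's groups overlap. Ddx21 was also higher (log2 0.13) and Ddx5 also lower (-0.21), while the intron-binding helicase Aqr, Ddx41 and Blm did not pass.

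Among topoisomerases, Top2b measured 177 and 176 CPM in knockout testes and 150, 148 and 152 CPM in wild type (log2 0.24 ± 0.04, adjusted p = 4.58e-05). Tdrd3, the scaffold that binds Top3b, measured 75.6 and 76.6 CPM in knockout testes and 83.7, 84.5 and 84.0 CPM in wild type (log2 -0.14 ± 0.04, adjusted p = 0.0112). Without knockout library 1 the adjusted p of Tdrd3 was 0.0698. Top1, which relaxes supercoils, was called higher by only 0.11, and lost the call without knockout 2 (adjusted p = 0.159), wild type 2 (0.0609) or wild type 3 (0.108).

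In the Fanconi and BRCA group the translocase gene Fancm measured 63.2 and 66.9 CPM in knockout testes and 52.4, 53.2 and 57.3 CPM in wild type (log2 0.26 ± 0.05, adjusted p = 0.00057). Brca2, which acts in recombination repair, measured 309 and 312 CPM in knockout testes and 259, 274 and 275 CPM in wild type (log2 0.20 ± 0.04, adjusted p = 0.000194). Both were above every wild-type library. Brca1, Fancd2, Fanci and Fanca lay between log2 -0.07 and 0.01 and did not pass.

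Export and processing genes were split. Thoc2 measured 140 and 142 CPM in knockout testes and 125, 124 and 124 CPM in wild type (log2 0.18 ± 0.04, adjusted p = 0.00084). Thoc5, of the same export complex, measured 93.7 and 92.7 CPM in knockout testes and 104, 106 and 109 CPM in wild type (log2 -0.19 ± 0.04, adjusted p = 0.00105). These subunits of 1 complex moved in opposite directions. Srsf1, a splicing factor, was called 0.13 higher but lost the call without knockout library 1 (adjusted p = 0.0741), as did Ddx21 (0.0971).

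The excision nuclease gene Ercc4 measured 55.6 and 53.9 CPM in knockout testes and 72.7, 75.3 and 72.6 CPM in wild type (log2 -0.43 ± 0.05, adjusted p = 8.52e-07). Rpa1, the large subunit of RPA, measured 205 and 187 CPM in knockout testes and 258, 260 and 254 CPM in wild type (log2 -0.39 ± 0.04, adjusted p = 4.17e-07). Rpa2, its partner, did not pass, at 38.5 and 43.0 CPM in knockout testes and 38.3, 38.1 and 34.5 CPM in wild type. Atr was 0.12 lower on the log2 scale, and its call was lost without knockout 2 (adjusted p = 0.196) or wild type 3 (0.101). With wild type 3 left out, 8 members were higher and 7 lower, beside 35.7% of all genes called. With libraries grouped by file record, which moves wild type 3 to the knockouts, no member was called by edgeR (2 had an unadjusted p under 0.05), nor was any gene, 415 having an unadjusted p below that value.

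**Figure D2:**
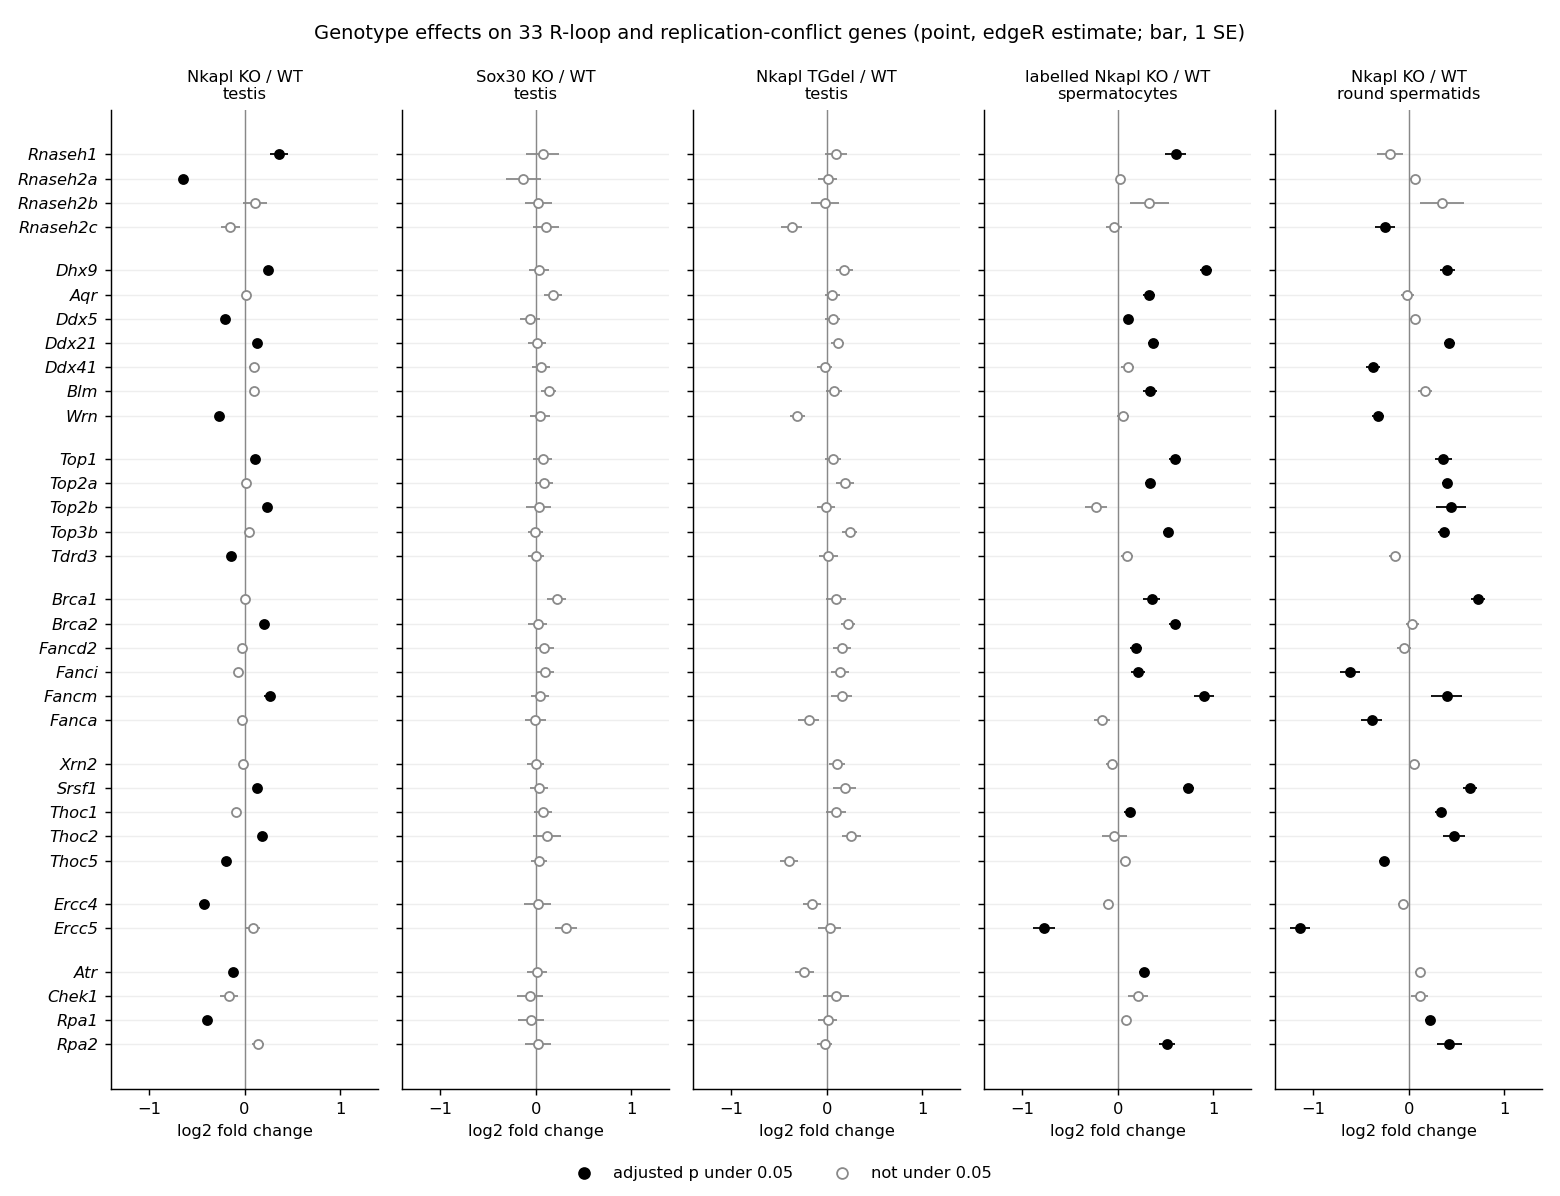
Log2 fold change of each of the 33 members with 1 SE in the 5 genotype comparisons, ordered by role. Filled points passed the adjusted p threshold; there are 17, 0, 0, 19 and 20 of them from left to right.

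The TGdel allele gave no called member. Of 16011 genes tested in TGdel against wild-type testis, 0.2% were called higher and 1.05% lower, 1.25% in all. That share was 0% without TGdel 2, 0.00614% without wild type 1, 0.245% without wild type 2 and 3.18% without TGdel 1. Of the 33 members, 7 had an unadjusted p under 0.05 by edgeR, beside 2476 of all 16011 genes. DESeq2 called Thoc5 lower, beside 3.55% of all genes called by it. Thoc5 measured 91.3, 107 and 108 CPM in TGdel testes and 136 and 132 CPM in wild type, the groups apart by a wide margin (log2 -0.40 ± 0.09, adjusted p = 0.0822 in edgeR and 0.0109 in DESeq2). Wrn measured 46.0, 43.2 and 47.3 CPM in TGdel testes and 57.4 and 55.1 CPM in wild type (log2 -0.31 ± 0.08, adjusted p = 0.109). Rnaseh2c measured 19.8, 23.7 and 22.1 CPM in TGdel testes and 28.1 and 28.3 CPM in wild type (log2 -0.37 ± 0.11, adjusted p = 0.154). Rnaseh2a had overlapping groups, at 351, 399 and 391 CPM in TGdel testes and 412 and 344 CPM in wild type. TGdel 1 stood apart in Rn45s, at 4930 CPM against 611 to 699 CPM in the other 4 libraries, and without it no member was called. The round spermatid markers summed to 92.6 to 140 CPM in TGdel testes and 155 to 211 CPM in wild type, and their part in the values was not tested. The heading and record of TGdel 3 and wild type 2 name different groups. Leaving both out leaves 1 wild-type library, too few to show a spread between wild types, so no call is read from that fit.

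The Sox30 knockout gave no called member either. Of 17816 genes tested, 0.505% were called higher and 1.92% lower, 2.42% in all. That share was 0.235% without knockout 1, 0.11% without knockout 2, 0.729% without wild type 1 and 3.91% without wild type 3. DESeq2 called 0 of the 33 members, beside 3.9% of all genes. By edgeR 1 of the 33 members had an unadjusted p under 0.05, beside 1552 of 17816 genes. That member was Ercc5, the excision nuclease XPG, with 31.1 and 30.9 CPM in Sox30 knockout testes and 24.1, 23.1 and 27.4 CPM in wild type (log2 0.32 ± 0.12, adjusted p = 0.409). With replicate number as a block, edgeR called Ercc5 higher (log2 0.39, adjusted p = 0.0205), beside 9.7% of all genes called. In the main test all members lay between log2 -0.13 and 0.32. Rnaseh2a measured 202 and 299 CPM in Sox30 knockout testes and 266, 315 and 241 CPM in wild type, so its groups overlapped. The round spermatid markers summed to 70.9 and 112 CPM in these knockouts and 153 to 322 CPM in wild type. Fold changes of Nkapl knockout, TGdel and Sox30 knockout testes come from separate sets with their own wild types, and the differences between them were not tested. Replicates lay closer together in the Nkapl set than in the other sets, so counts of called members cannot be set side by side.

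In sorted spermatocytes the calls ran mostly towards higher levels in libraries labelled knockout. Of 33 members, 18 were higher and 1 lower than in libraries labelled wild type, beside 33.6% of 15805 genes called higher and 25.7% called lower (59.2% in all). Members called in either direction made up 57.6%, near the share of all genes. Of all genes, 57.5% were called with DESeq2 size factors and 55.8% with the spermatocyte libraries alone. With DESeq2 size factors the split of members was 15 and 4. It was 14 and 4 with the spermatocyte libraries alone, and also without any 1 of the 4 spermatid libraries. The median log2 fold change was 0.21 over the members and 0.07 over all genes tested. Dhx9, Fancm and Srsf1 rose most, and Ercc5 was the 1 member that fell. In the same libraries Nkapl was higher in those labelled knockout, as given above.

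Dhx9 (chromosome 1, 153455758 to 153487660, minus strand) and Ercc5 (chromosome 1, 44147744 to 44181260, plus strand) mark the ends of this range. The 250 bases before their starts, from RefSeq on GRCm38.p6, are shown for that reason. Capitals mark matches on either strand to motifs listed further down, and each sequence is written in the direction of its gene. The Dhx9 window is chr1:153487661-153487910 and the Ercc5 window is chr1:44147494-44147743.
Dhx9: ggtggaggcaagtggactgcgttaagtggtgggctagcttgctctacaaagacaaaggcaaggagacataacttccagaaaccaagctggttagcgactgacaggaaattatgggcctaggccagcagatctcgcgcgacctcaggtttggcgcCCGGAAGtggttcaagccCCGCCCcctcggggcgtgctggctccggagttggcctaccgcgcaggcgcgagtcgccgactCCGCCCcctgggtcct
Ercc5: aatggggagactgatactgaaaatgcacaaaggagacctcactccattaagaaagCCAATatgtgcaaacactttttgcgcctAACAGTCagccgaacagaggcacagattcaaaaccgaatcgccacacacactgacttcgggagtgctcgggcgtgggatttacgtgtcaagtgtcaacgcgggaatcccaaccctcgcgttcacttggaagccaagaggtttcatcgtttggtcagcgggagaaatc

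In Dhx9 the ETS motif begins 96 bases before the start and the GC boxes 78 and 16 bases before it. In Ercc5 the CCAAT box begins 195 and the MYB motif 167 bases before the start. Promoters of 28 of the 33 members were in the RefSeq table. A member counts once if any of its promoter entries has a match, while the share over all promoters counts entries. The CCAAT box (CCAAT) occurs in 14 of the 28, beside 33.8% of all 32851 promoters, and the GC box (GGGCGG) in 15, beside 32.7%. The MYB motif (AACNGNC) occurs in 10, beside 27.7%, the ETS motif (CCGGAAG) in 5, beside 6.91%, and the SOX core (ACAAT) in 3, beside 27.7%. The cAMP response element (TGACGTCA) occurs in 1, beside 1.55%, and the NRF1 motif in 0, beside 0.782%. Both strands were read and overlapping matches of different motifs were kept. A match is a run of letters and shows no binding.

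Dhx9 measured 240 and 231 CPM in spermatocytes labelled knockout and 136 and 113 CPM in those labelled wild type (log2 0.92 ± 0.06, adjusted p = 1.78e-13). Ddx21 followed with 117 and 113 CPM in libraries labelled knockout and 93.2 and 84.8 CPM in those labelled wild type (log2 0.37 ± 0.06, adjusted p = 2.46e-06). Of the 7 helicases 5 were higher and none lower, beside 33.6% and 25.7% of all genes, and Ddx41 and Wrn did not pass. The call of Ddx5, at log2 0.11, was lost with any of the 8 sorted libraries left out except wild-type-labelled spermatocyte 1 (adjusted p up to 0.517).

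Rnaseh1 measured 13.7 and 12.5 CPM in spermatocytes labelled knockout and 8.49 and 8.70 CPM in those labelled wild type (log2 0.61 ± 0.11, adjusted p = 1.97e-05). Rnaseh2a did not pass here, at 596 and 582 CPM in libraries labelled knockout and 547 and 610 CPM in those labelled wild type. Among topoisomerases, Top1 measured 81.5 and 81.1 CPM in libraries labelled knockout and 57.2 and 50 CPM in those labelled wild type (log2 0.60 ± 0.06, adjusted p = 3.57e-09). Top3b, which also acts on RNA, measured 148 and 142 CPM in libraries labelled knockout and 100 CPM in each labelled wild type (log2 0.53 ± 0.05, adjusted p = 1.05e-09).

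Of 6 Fanconi and BRCA genes, 5 were higher, beside 33.6% of all genes. Fancm measured 19.1 and 18.7 CPM in spermatocytes labelled knockout and 10.6 and 9.56 CPM in those labelled wild type (log2 0.90 ± 0.10, adjusted p = 8.76e-09). Brca2 measured 107 and 103 CPM in libraries labelled knockout and 73.7 and 64.8 CPM in those labelled wild type (log2 0.60 ± 0.06, adjusted p = 2.29e-09). Fancd2 and Fanci, partners in 1 complex, were called at log2 0.19 and 0.21. Their calls were lost without knockout-labelled spermatocyte 1 (adjusted p = 0.0777 and 0.145), and also without any 1 of the 4 spermatid libraries. Fancd2 also lost it without wild-type-labelled spermatocyte 2 (0.054).

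Srsf1 measured 191 and 195 CPM in spermatocytes labelled knockout and 117 and 114 CPM in those labelled wild type (log2 0.74 ± 0.06, adjusted p = 5.83e-12). Thoc1 was called at log2 0.12, and no left-out library kept that call except wild-type-labelled spermatocyte 2. Atr measured 530 and 535 CPM in libraries labelled knockout and 473 and 408 CPM in those labelled wild type (log2 0.27 ± 0.05, adjusted p = 5.49e-05). Without wild-type-labelled spermatocyte 2 the log2 value of Atr was 0.17. Rpa2 measured 25.7 and 24.0 CPM in libraries labelled knockout and 17.4 CPM in each labelled wild type (log2 0.52 ± 0.09, adjusted p = 1.05e-05). Ercc5 ran against all of these, at 5.94 and 6.05 CPM in libraries labelled knockout and 10.1 and 10.4 CPM in those labelled wild type (log2 -0.77 ± 0.12, adjusted p = 1.88e-06). The Sertoli markers summed to 158 to 160 CPM in spermatocytes labelled knockout and 225 to 236 CPM in those labelled wild type, with 6 of 12 lower. Spermatogonial markers summed to 139 to 144 CPM in libraries labelled knockout and 102 to 105 CPM in those labelled wild type, with 5 of 10 higher. Leptotene to zygotene markers summed to 766 to 774 CPM in libraries labelled knockout and 524 to 588 CPM in those labelled wild type, with 3 higher and 2 lower of 8 tested. Leydig markers summed to 65.6 to 70.1 CPM in libraries labelled knockout and 45.2 to 45.9 CPM in those labelled wild type, with 5 of 7 higher. Peritubular markers summed to 39.7 to 43.0 CPM in libraries labelled knockout and 98.6 to 98.7 CPM in those labelled wild type, with 1 of 5 lower. The part of these lists in the members' values was not tested.

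**Figure D3:**
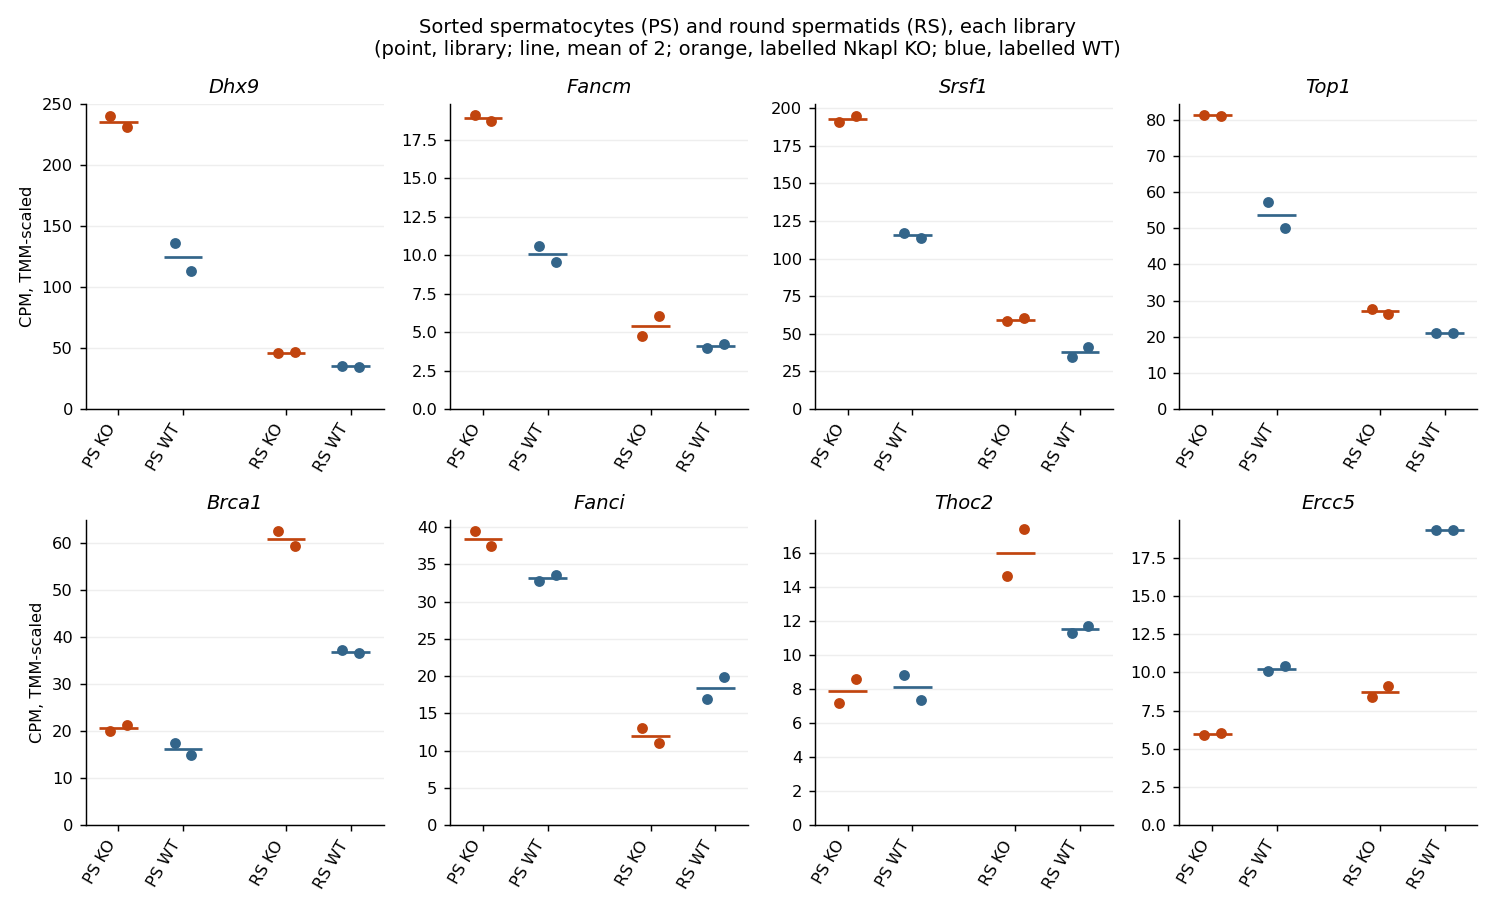
CPM of 8 members in each sorted library (points, with the mean of 2 as a line), labelled knockout left of labelled wild type; PS marks spermatocytes and RS round spermatids, and each axis starts at 0. Dhx9, Fancm, Srsf1 and Top1 are above wild type in both cell types, Ercc5 is below in both, and Fanci is above in spermatocytes and below in spermatids.

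In knockout round spermatids 13 members were higher and 7 lower than in wild type, beside 29% of 15805 genes called higher and 31% called lower (60% in all). The median log2 fold change was 0.11 over the members and 0.03 over all genes tested. Fitted without the spermatocyte libraries, 15 members were higher and 8 lower, beside 64.7% of 15016 genes called in either direction. Brca1 rose most and Ercc5 fell most. All 12 round spermatid markers were lower in knockout spermatids, and all 7 Leydig markers tested were higher, summing to 23.8 to 25.5 CPM in knockout and 9.08 to 9.69 CPM in wild type. The macrophage markers summed to 28.0 to 29.5 CPM in knockout and 14.4 to 15.0 CPM in wild type, with 5 of 6 higher. The peritubular myoid markers went the other way, at 118 to 119 CPM in knockout and 272 to 279 CPM in wild type. Of 5 tested, 2 were lower. Leptotene to zygotene markers summed to 364 to 378 CPM in knockout and 419 to 429 CPM in wild type. Of 8 tested, 2 were higher and 3 lower. Markers of cycling cells summed to 394 to 403 CPM in knockout and 307 to 320 CPM in wild type, with 5 of 6 higher. The part of these marker shifts in the members' values was not tested.

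Brca1, which acts in strand repair and in silencing of the meiotic sex chromosomes, measured 62.5 and 59.3 CPM in knockout spermatids and 37.2 and 36.6 CPM in wild type (log2 0.72 ± 0.07, adjusted p = 6.89e-10). Ercc5 measured 8.37 and 9.12 CPM in knockout spermatids and 19.3 CPM in each wild-type library (log2 -1.14 ± 0.10, adjusted p = 1.05e-10), 0.453 of the wild-type level. Fanci measured 13 and 11 CPM in knockout spermatids and 17.0 and 19.9 CPM in wild type (log2 -0.62 ± 0.11, adjusted p = 8.54e-06).

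Among helicases, Ddx21 measured 134 and 128 CPM in knockout spermatids and 100 and 95.6 CPM in wild type (log2 0.42 ± 0.06, adjusted p = 3.29e-07). Dhx9 measured 46.1 and 46.4 CPM in knockout spermatids and 35.4 and 34.5 CPM in wild type (log2 0.41 ± 0.08, adjusted p = 6.72e-05). Ddx41 and Wrn fell by 0.38 and 0.32 on the log2 scale. Rnaseh2c was the RNase H gene called, at 11.7 and 10.6 CPM in knockout spermatids and 12.7 and 13.8 CPM in wild type (log2 -0.25 ± 0.11, adjusted p = 0.0433). It lost the call without knockout spermatid 2 (adjusted p = 0.232), wild-type spermatid 2 (0.178) or knockout-labelled spermatocyte 2 (0.0507).

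Of the 5 topoisomerase genes, counting the scaffold Tdrd3, 4 were higher in knockout spermatids, beside 29% of all genes. Top2a, the form of dividing cells, measured 180 CPM in each knockout library and 134 and 139 CPM in wild type (log2 0.40 ± 0.05, adjusted p = 8.97e-08). Top2b rested on few counts and measured 5.90 and 6.54 CPM in knockout spermatids and 4.50 and 4.68 CPM in wild type (log2 0.44 ± 0.16, adjusted p = 0.0167). The Top2b call was lost without knockout spermatid 2 (adjusted p = 0.135), wild-type spermatid 1 (0.106) or wild-type spermatid 2 (0.0621). Fancm, called at log2 0.40, was lost without the same 3 libraries, and stood at log2 0.20 without knockout spermatid 2.

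Srsf1 measured 58.6 and 60.2 CPM in knockout spermatids and 34.7 and 41.3 CPM in wild type (log2 0.64 ± 0.07, adjusted p = 6.25e-09). Thoc2 measured 14.6 and 17.4 CPM in knockout spermatids and 11.3 and 11.7 CPM in wild type (log2 0.47 ± 0.11, adjusted p = 0.000726). Thoc5 again ran the other way, at 146 and 141 CPM in knockout spermatids and 176 and 168 CPM in wild type (log2 -0.26 ± 0.05, adjusted p = 9.19e-05). Rpa1 measured 458 and 448 CPM in knockout spermatids and 394 and 384 CPM in wild type (log2 0.22 ± 0.05, adjusted p = 0.000135). Rpa2 was called at log2 0.42, and lost the call without knockout spermatid 1 (log2 0.25, adjusted p = 0.182) or wild-type spermatid 1 (0.0939).

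The knockout effect itself differed between the cell types for 12 members, 4 with a higher and 8 with a lower log2 fold change in spermatids than in spermatocytes, beside 9.02% and 16.4% of 15805 genes (25.5% in all). This contrast uses the spermatocyte labels that Nkapl goes against. Fanci had the largest difference, at log2 -0.62 in spermatids and 0.21 in spermatocytes (difference -0.83 ± 0.13, adjusted p = 2.14e-05). Rnaseh1 stood at log2 -0.20 in spermatids and 0.61 in spermatocytes (difference -0.80 ± 0.17, adjusted p = 0.000929). Brca2 stood at log2 0.04 in spermatids and 0.60 in spermatocytes (difference -0.56 ± 0.09, adjusted p = 4.77e-05). Dhx9 was higher in both, by log2 0.41 in spermatids and 0.92 in spermatocytes (difference -0.52 ± 0.10, adjusted p = 0.000327). Top2b went the other way, at log2 0.44 in spermatids and -0.23 in spermatocytes (difference 0.67 ± 0.19, adjusted p = 0.0115), and lost the call in DESeq2 (adjusted p = 0.0727). Ercc5, lower in both cell types, had a difference of -0.37 ± 0.16 that did not pass (adjusted p = 0.0877).

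Spermatids and spermatocytes differed in most members, both between libraries labelled knockout and between those labelled wild type. These contrasts rest on the same spermatocyte labels that Nkapl goes against. Between libraries labelled knockout 10 members were higher and 21 lower in spermatids, beside 37.7% and 39.3% of 15805 genes (77% in all). Between libraries labelled wild type 10 were higher and 14 lower, beside 41.1% and 36.4% (77.5% in all). The median log2 fold change of the members was -0.27 in libraries labelled knockout and -0.10 in those labelled wild type. Over all genes it was -0.04 in libraries labelled knockout and 0.05 in those labelled wild type. These stage contrasts use the same 8 libraries as the genotype contrasts, so they are not separate evidence.

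Dhx9 fell most with stage. It measured 35.4 and 34.5 CPM in wild-type spermatids and 136 and 113 CPM in spermatocytes labelled wild type (log2 -1.83 ± 0.07, adjusted p = 1.19e-19). Srsf1 measured 34.7 and 41.3 CPM in wild-type spermatids and 117 and 114 CPM in spermatocytes labelled wild type (log2 -1.60 ± 0.07, adjusted p = 4.44e-19). Top1 fell by 1.35, Fancm by 1.30, Rpa2 and Top2b by 1.24 each and Atr by 1.01 on the log2 scale, all with adjusted p under the threshold. Atr, the kinase that answers to single-stranded DNA at forks and on unsynapsed chromosomes, measured 217 and 221 CPM in wild-type spermatids and 473 and 408 CPM in spermatocytes labelled wild type.

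Other members were higher in spermatids. Brca1 measured 37.2 and 36.6 CPM in wild-type spermatids and 17.4 and 15.0 CPM in spermatocytes labelled wild type (log2 1.19 ± 0.08, adjusted p = 9e-14). Both excision nucleases were higher, Ercc5 by log2 0.91 ± 0.10 and Ercc4 by 0.53 ± 0.05. Chek1, the kinase below ATR, was higher by 0.91 ± 0.10 and Xrn2, the exonuclease that ends transcription, by 0.85 ± 0.06. Chek1 and its upstream kinase Atr thus moved in opposite directions. Rnaseh2a measured 729 and 724 CPM in wild-type spermatids and 547 and 610 CPM in spermatocytes labelled wild type (log2 0.33 ± 0.05, adjusted p = 3.12e-07), while Rnaseh2c fell by 0.57 ± 0.09.

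**Figure D4:**
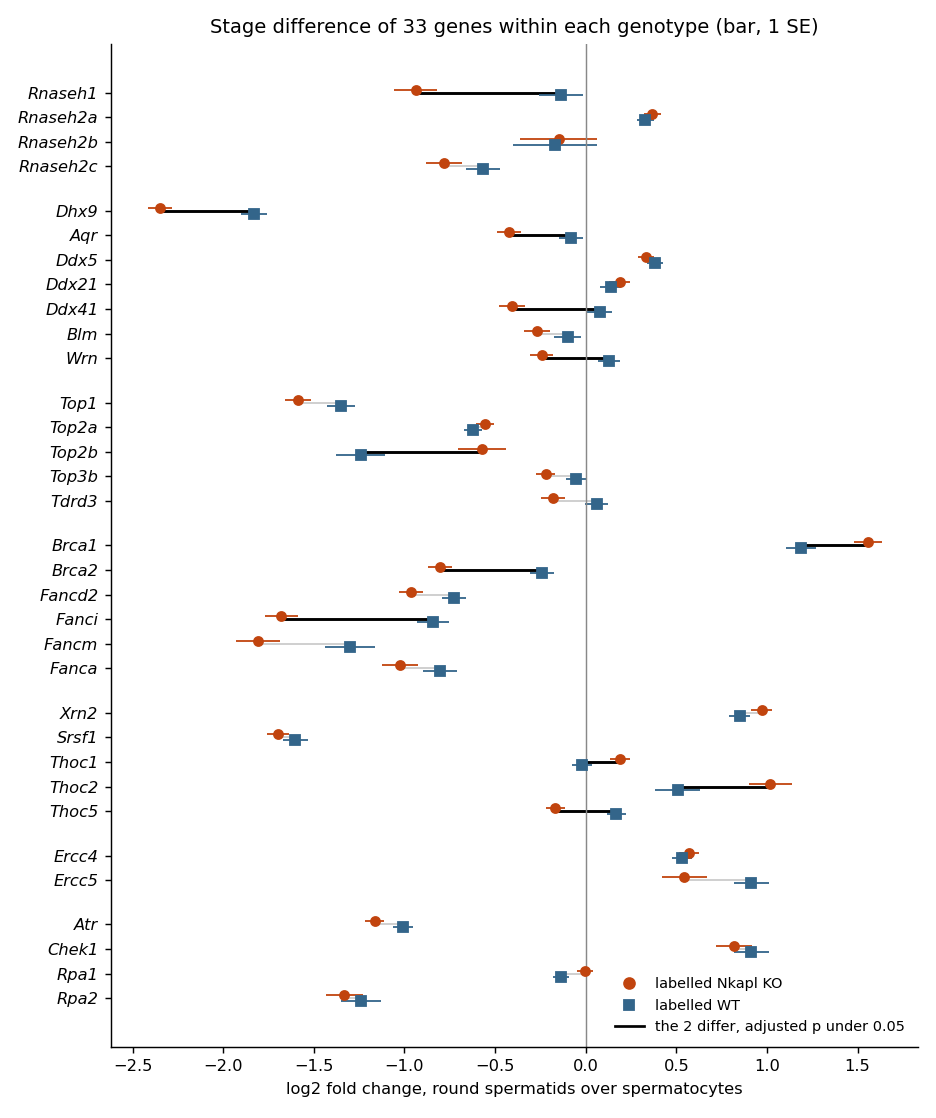
Log2 fold change of spermatids over spermatocytes for each member with 1 SE, in libraries labelled knockout (circles) and wild type (squares). Dark lines join the 12 members whose genotype effect differed between the cell types; Dhx9 lies lowest at -2.35 and -1.83, and Brca1 highest at 1.56 and 1.19.

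Related genes outside the group were read from 4 lists with 90 genes in the files, also chosen with earlier results of these data known. In Nkapl knockout testis 30 of the 90 were higher and 16 lower, beside 17.8% and 26.1% of all genes (51.1% called, beside 43.9% of all genes). Of the rises Top3a, a topoisomerase of the BLM complex, had the smallest p, at 132 and 128 CPM in knockout and 80.4, 85.3 and 79.9 CPM in wild type (log2 0.67 ± 0.04, adjusted p = 6.73e-10), and Mcm3 of the replicative helicase came next (log2 0.39). Of the falls the smallest p were those of Usp1, which removes ubiquitin from FANCD2 (log2 -0.44), and Tdp1, which clears stalled TOP1 (-0.45). Fork and topology genes were 12 higher and 4 lower of 28, hybrid and RNA processing genes 11 and 3 of 25, Fanconi and recombination genes 3 and 6 of 20, and checkpoint and excision genes 4 and 3 of 17. In TGdel testis Top3a was the 1 gene of 90 called, at 106, 94.6 and 101 CPM in TGdel and 65.6 and 62.8 CPM in wild type (log2 0.65 ± 0.08, adjusted p = 0.0142). In Sox30 knockout testis none of the 90 was called by edgeR. An unadjusted p below 0.05 was found for 3 of them, beside 1552 of 17816 genes. There Top3a measured 84.5 and 87.4 CPM in knockout and 74.8, 72.5 and 75.8 CPM in wild type.

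In spermatocytes labelled knockout 58 of 87 list genes tested were higher and 9 lower, beside 33.6% and 25.7% of all genes. Top3a measured 159 and 161 CPM in libraries labelled knockout and 47.9 and 50.2 CPM in those labelled wild type (log2 1.70 ± 0.06, adjusted p = 3.76e-19). Mus81, a junction nuclease, fell by 0.51 and Tdp1 fell by 0.36 on the log2 scale. Hybrid and RNA processing genes were 21 higher and 1 lower of 25, fork and topology genes 16 and 4 of 27, Fanconi and recombination genes 11 and 1 of 18, and checkpoint and excision genes 10 and 3 of 17.

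In knockout spermatids 44 of 87 list genes were higher and 9 lower, beside 29% and 31% of all genes. The share called was 60.9%, near the 60% of all genes. Hybrid and RNA processing genes were 14 higher and 2 lower of 25, fork and topology genes 13 and 3 of 27, Fanconi and recombination genes 10 and 2 of 18, and checkpoint and excision genes 7 and 2 of 17. The export gene Pcid2 measured 146 and 132 CPM in knockout spermatids and 76.3 and 74.0 CPM in wild type (log2 0.89 ± 0.06, adjusted p = 1.07e-13). Fen1, the flap nuclease of replication and repair, measured 7.16 and 6.94 CPM in knockout spermatids and 17.4 and 16.9 CPM in wild type (log2 -1.28 ± 0.11, adjusted p = 3.05e-11). Mus81 measured 28.0 and 28.3 CPM in knockout spermatids and 50.9 and 51.2 CPM in wild type (log2 -0.86 ± 0.07, adjusted p = 2.07e-11). Between stages, Ube2t, which ubiquitinates FANCD2 and FANCI, fell by 2.80 in libraries labelled knockout and fell by 2.66 in wild type on the log2 scale. Cdc25a, a phosphatase that CHEK1 inhibits, was higher in spermatids by 1.37 in libraries labelled knockout and 0.80 in wild type. The fork protection gene Tipin rose by 1.47 and Top3a fell by 1.86 in knockout spermatids against spermatocytes labelled knockout. The helicase gene Recql5 rose by 0.93 and the checkpoint adaptor Topbp1 fell by 2.17 in wild-type spermatids against spermatocytes labelled wild type. Of the list genes, 31% were called for a difference of the knockout effect between cell types, beside 25.5% of all genes, 6 with a higher and 21 with a lower value in spermatids. Among them were Cdc25a (0.57), Top3a (-0.93) and the quadruplex helicase Dhx36 (-0.64).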

How the data were processed

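Raw read counts per gene were deposited by the authors, as whole numbers with no scaling, for 24682 gene symbols in 26 files. The tools listed, per the submitters' processing notes, are HTSeq, DESeq2 and HISAT2 (version 2.1.0), beside the build mm10. Their roles, the annotation and the strand setting are not stated there. Libraries keep strand and come from TRIzol-extracted total RNA, per the labels' protocols. Column headings are library codes and were tied to samples through the code in each recorded file name. Of the 26 files, 3 repeat another file's column and were counted once. HTSeq summary lines, which the files of sorted cells hold, entered neither library sizes nor tests and made up 18.8% to 24.6% of the reads. All replicate pairs differed by more than sampling noise, but by unequal amounts. The mean chi-square per gene, which grows with the spread and with depth, was 1.4 to 4.85 in sorted groups. It was 2.5 in Nkapl knockout and 1.93 to 4.2 in Nkapl wild-type testes. In TGdel testes it was 8.56 to 16.9 and in their wild types 6.49. In Sox30 knockout testes it was 42 and in their wild types 10.5 to 35.4.

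Genes were kept with filterByExpr by group, scaled by TMM and tested two-sided with edgeR 4.0.16 (quasi-likelihood F test in R 4.3.3, Benjamini-Hochberg over all genes tested, threshold 0.05). One model was fitted for each testis set and one for the 8 sorted libraries. Every adjusted p given comes from this test unless DESeq2 (1.42.0) is named. SE is the log2 fold change over the square root of F, CPM are TMM-scaled, and levels per kilobase use merged GENCODE vM21 exons. The scripts were tested on simulated counts. The labels tie no replicate number to an animal or batch, so the main tests do not pair the samples.

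Where over 10 members were called, the 2 called members of each role with the largest change were given in full, with others added after their values were seen. From the related lists, the 2 called genes with the smallest p in each direction were named, and some are not reported here. Alternatives were DESeq2 size factors, no filter, DESeq2, a replicate block, each library left out, other groupings of libraries and other fits. The members and lists were chosen with earlier results of these data known.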

Additional observations from a re-analysis of the deposited data

Results flagged for a closer look

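The Nkapl knockout effect on the log2 scale differed between spermatids and spermatocytes for 12 of 33 members (36.4%), beside 25.5% of 15805 genes. The test was edgeR's test of the difference (adjusted p under 0.05). In spermatids minus spermatocytes the effect was lower for Fanci (-0.835), Rnaseh1 (-0.801), Brca2 (-0.561), Dhx9 (-0.518), Ddx41 (-0.482), Wrn (-0.372), Aqr (-0.343) and Thoc5 (-0.338). It was higher for Top2b (0.667), Thoc2 (0.512), Brca1 (0.367) and Thoc1 (0.210). Of these, Aqr, Brca1, Thoc1 and Thoc2 lost the call when 1 of several libraries was left out, with adjusted p up to 0.176, while the other 8 kept it under each library left out. With DESeq2 the calls of Top2b (adjusted p = 0.0727), Aqr (0.0705) and Thoc2 (0.113) were lost. The spermatocyte labels, which Nkapl goes against, enter all 12.

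For 3 members, each called in both comparisons, whole testis and a sorted cell type moved in opposite directions with no overlap between groups. The difference was not tested. Members of opposite sign that were not called in both are left out here. Groups without overlap were common among all genes. They were found for 10569 of 16937 genes in knockout testis, 12310 of 15805 in spermatocytes and 12623 of 15805 in spermatids. Rpa1 was higher in knockout spermatids (log2 0.220) and lower in knockout testis (-0.393). Atr was higher in spermatocytes labelled knockout (0.273) and lower in knockout testis (-0.119), where its call was lost in 6 of 12 alternatives. Ddx5 was higher in spermatocytes labelled knockout (0.110) and lower in knockout testis (-0.209). Its spermatocyte call was lost in 11 of 13 alternatives, with a log2 value down to 0.034.

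Reads that HTSeq assigned to no gene, which enter no comparison, averaged 23.4% in spermatocytes labelled knockout and 24.6% in knockout spermatids, above the 18.8% to 20% in libraries labelled wild type.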

How the results depend on the processing

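Over all alternatives, 1426 values of called members kept their direction and their side of the threshold, 144 kept the direction but lost the call, and none reversed. In Nkapl knockout testis, grouping by file record left 0 members higher and 0 lower, beside 0% of all genes. Pooling the 15 testis libraries in 1 fit gave 3 higher and 3 lower, beside 19% of all genes. The TGdel comparison gave 1 lower member with DESeq2, beside 3.55% of all genes. In that pooled fit it gave 1 higher and 1 lower, beside 2.41%. In spermatocytes labelled knockout, 15 members were higher and 4 lower with DESeq2 size factors, beside 57.5% of all genes. The split was 14 and 4 with no filter on low counts (40.8% of all genes) or with the 4 spermatocyte libraries alone (55.8%). The cause was not tested. Leaving out 1 library gave 14 to 19 higher and 1 to 4 lower members in these spermatocytes, and for the difference of effects 1 to 4 higher and 7 to 13 lower. It was lowest for higher members without knockout-labelled spermatocyte 1 and highest for lower members without wild-type-labelled spermatocyte 1. In Nkapl knockout testis it gave 8 to 10 higher and 7 to 8 lower, and in knockout spermatids 10 to 15 and 6 to 8. Samples share only a replicate number. With it as a block, 8 members were higher and 6 lower in Nkapl knockout testis, beside 36.2% of all genes. In Sox30 knockout testis 1 member (Ercc5) was then higher, beside 9.7% of all genes. The count of 34 reads limits the precision of Rnaseh2b.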

Other observations

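The ratio of partner subunits, as levels per kilobase, varied between groups and was not tested. Rnaseh2a stood 28.0 to 36.8 times above Rnaseh2b in Nkapl knockout testes and 49.7 to 60.4 times above it in wild-type testes. In spermatids the ratio was 388 to 572 in knockout and 495 to 655 in wild-type libraries, so these ranges overlap. Rpa1 stood 2.33 to 2.86 times above Rpa2 in Nkapl knockout testes and 3.61 to 3.95 times above it in wild-type testes. In sorted cells it stood 22.8 to 27.0 times above Rpa2 in knockout spermatids and 26.6 to 30.4 times in wild-type spermatids, and 9.35 to 10.3 times in spermatocytes labelled knockout and 12.9 to 13.5 times in those labelled wild type.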
